A study of Rattus norvegicus with 10 samples.

Results

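The choroid plexus is the secretory tissue of the brain ventricles, and its epithelium makes cerebrospinal fluid. Its transcripts were followed here in mRNA of the left hippocampus, sequenced from 10 male rats, as 33 named genes that are known for high expression in choroid plexus epithelium. Of the 33 genes, 32 matched a row of the 17168 genes in the deposited tables, and Vat1l matched none. A filter on low counts kept 29 for testing; Steap1, Col8a1 and Lbp fell below it and are given as values only.

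All 10 rats were TgF344-AD, a transgenic rat model of Alzheimer's disease that carries mutant human amyloid precursor protein and presenilin genes, and all were 11 months old. The 5 untreated rats received plain rodent chow and no drug. The 5 RG2833 rats received chow with 750 mg per kg of RG2833, a drug that blocks histone deacetylases HDAC1 and HDAC3, from 5 months of age for 6 months. Rats without the transgenes were not analysed here, so every value below carries the transgene background. The transgenes of this line are driven by a mouse prion promoter. Levels are CPM, the reads of a gene per unit of library size after TMM scaling, which evens out differences in library composition. Each library is 1 rat, and total expected counts ran from 15118203 to 18533520.

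Choroid plexus epithelium is a single layer of polarised cells on a vascular stroma. It secretes carrier proteins such as transthyretin into the fluid, moves ions and water across its apical face, and is closed by tight junctions. The plexus lies beside the hippocampus along the choroid fissure. In bulk RNA, fewer cells of a type and less RNA per cell cannot be told apart.

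Ttr, which encodes transthyretin, the carrier of thyroid hormone and retinol-binding protein, differed widely between libraries of the same group. In untreated replicates 1 to 5 it stood at 16.6, 6929, 236, 49.9 and 23.9 CPM, and in RG2833 replicates 1 to 5 at 8189.9, 24.9, 12.2, 75.1 and 3.11 CPM. Thus 1 library of each group, untreated replicate 2 and RG2833 replicate 1, were far above the rest, and the other 8 held from 3.11 to 236 CPM. These 2 libraries carried 97.3% of all Ttr counts of the series. The third library in order, untreated replicate 3, was lower than the second by a factor of 29.3. The lowest, RG2833 replicate 5, had 45 Ttr counts.

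The same 2 libraries were the highest pair for 30 of the 32 genes, Ttr included. The exceptions were Lbp and Perp. The highest library exceeded the median of the 10 libraries by a factor of 231 for F5, 219 for Ttr, 204 for Sostdc1, 201 for Tmem72 and 139.9 for Kl. At the other end the factor was 2.70 for Cab39l, 2.25 for Wfdc2 and 1.40 for Perp. Summed over the 32 genes, the level was 13236.9 CPM in untreated replicate 2 and 14054.1 CPM in RG2833 replicate 1. In the other 8 libraries the sum ran from 277 to 729 CPM. The slopes on Ttr and the comparison of RG2833 with untreated rats are given with and without these 2 libraries.

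**Figure D1:**
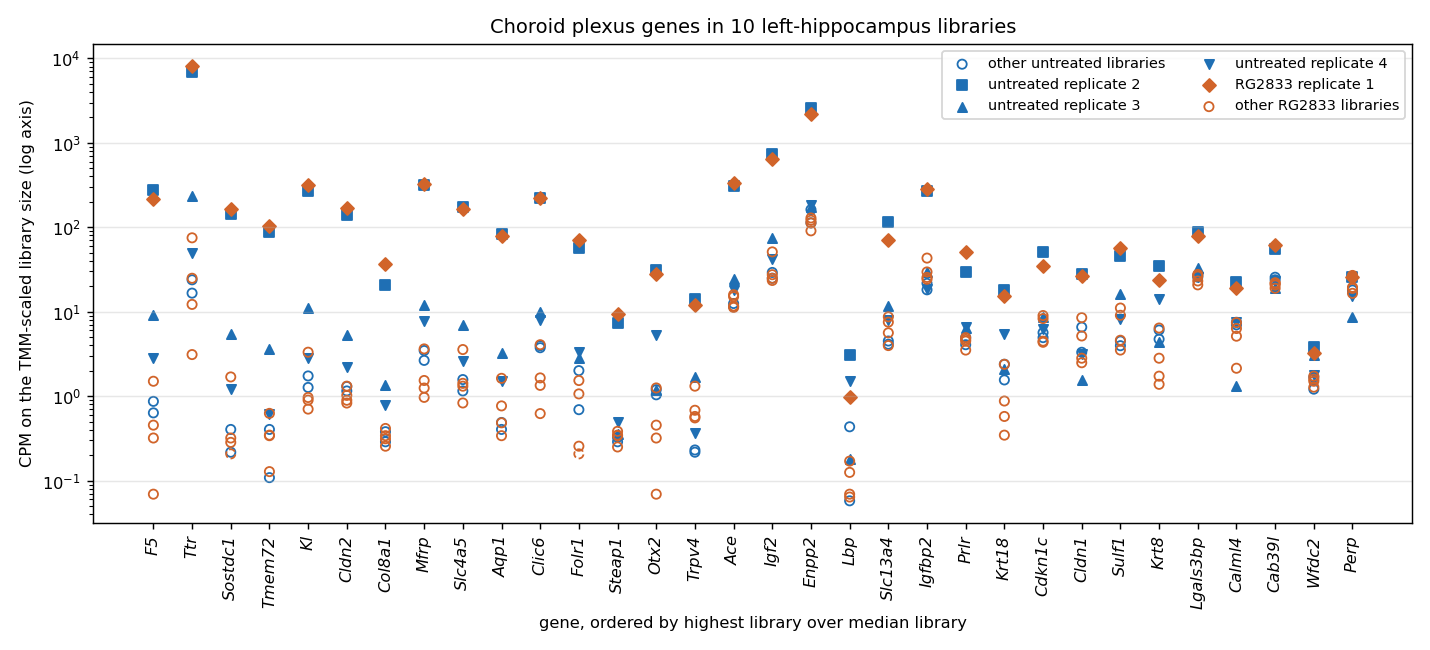
Level of each of the 32 genes (CPM, log axis) in each of 10 libraries, with genes ordered by the highest library over the median library; filled squares and diamonds mark untreated replicate 2 and RG2833 replicate 1, triangles untreated replicates 3 and 4, and dashed open circles a count of 0 drawn at the level of 3 counts. The 2 Ttr-rich libraries stand far above the rest on the left, while for Perp at the right end the highest library is only 1.40 times the median.

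Marker lists of other tissues were read beside these genes. Of 20 further choroid plexus epithelium genes, 16 were in the table, and for 15 of them untreated replicate 2 and RG2833 replicate 1 were again the highest pair; the exception was Bmp6. None of the 16 was at 0 in all libraries. Kcnj13, a potassium channel of the choroid plexus epithelium, stood at 0.289, 97.5, 3.88, 0.551 and 0.380 CPM in untreated and 112, 0.681, 0.192, 1.13 and 0.138 CPM in RG2833 replicates 1 to 5. The summed level of the 16 genes ran from 221 to 1108 CPM in untreated and from 259 to 1115 CPM in RG2833 rats. The same pair was highest for 6 of 12 leptomeningeal and stromal, 2 of 8 ependymal, 0 of 8 oligodendrocyte, 0 of 7 endothelial and 0 of 8 hippocampal neuron markers. Hippocampal neuron markers, summed, ran from 2494 to 2894 CPM in untreated and from 2449 to 3347 CPM in RG2833 rats, most of it Camk2a, a kinase of forebrain neurons (1574 to 2199 CPM). Untreated replicate 3 was the lowest of 10 by a wide margin for 4 of the 8 markers, and high for others. It had 4.30 CPM of Prox1, a dentate granule cell factor, against 21.5 to 50.5 CPM in the other 9 libraries. It had 42.1 CPM of Neurod6 (81.7 to 254 CPM in the others), 29.5 CPM of Grik4 (59.1 to 137 CPM) and 35.5 CPM of Fibcd1 (82.3 to 303 CPM), while Rbfox3, a general neuron marker, was at 116 CPM (118 to 163 CPM in the others). In the same library Calb1, a calcium-binding protein of granule cells and other neurons, was the highest of 10 at 90.6 CPM (65.7 to 80.3 CPM in the others), Camk2a was at 1910.0 CPM (1574 to 2199 CPM in the others) and Wfs1, a marker of CA1 neurons, at 298 CPM (135 to 390.3 CPM). This library also holds the most Ttr of the 8 outside the Ttr-rich pair.

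Leptomeningeal and stromal markers separated the 2 Ttr-rich libraries. The 12 genes summed to 694 CPM in untreated replicate 2 and to 197 CPM in RG2833 replicate 1, against 92.8 to 149 CPM in the other 8. Over whole groups the sum ran from 94.98 to 694 CPM in untreated and from 92.8 to 197 CPM in RG2833 rats, and none of the 12 was at 0 in all libraries. Col1a1, a chain of fibrillar collagen, was 7.52 times higher in untreated replicate 2 than in RG2833 replicate 1. Ependymal markers, of which 8 of 10 were in the table, gave a different order. Their sum was 99.9 CPM in untreated replicate 2, 71.1 CPM in RG2833 replicate 1 and 67.4 CPM in untreated replicate 4. The other 7 libraries ranged over 23.6 to 43.8 CPM. Single genes differed from the sum. In untreated replicate 2, RG2833 replicate 1 and untreated replicate 4, Foxj1 was at 41.6, 34.5 and 18.4 CPM. Ccdc153 was at 4.76, 3.16 and 8.88 CPM and Tmem212 at 4.15, 2.19 and 5.76 CPM in the same order. By group the sum ran from 29.1 to 99.9 CPM in untreated and from 23.6 to 71.1 CPM in RG2833 rats. None of the 8 genes was at 0 in all libraries.

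To see which genes follow Ttr, each gene's count per Ttr count was taken from the 2 Ttr-rich libraries together and applied to the Ttr count of each of the other 8 libraries. The result is the count the gene would have at a fixed ratio to Ttr, and it is given as a share of the observed count. A share near 100% means that the gene kept its ratio to Ttr, and a low share means that most of its level stood apart from Ttr. Of the 31 genes other than Ttr, 4 had a median share over the 8 libraries of at least 50%, 9 had one from 10% to 50%, and 18 had one under 10%. These bounds were set after the values were seen. With all counts of the 8 libraries summed first, 8 genes were at or above 50% and 13 under 10%, and 20 of the 31 shares were more than 1.5 times the median share given here, among them Enpp2 at 13.2%, Mfrp at 56.4% and Clic6 at 39.1%. In that sum untreated replicate 3 alone gave 53.6% of the summed Ttr counts.

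F5, Tmem72, Sostdc1 and Kl had the 4 highest median shares. F5 encodes coagulation factor V, and it stood at 0.635, 273, 9.07, 2.82 and 0.869 CPM in untreated and 216, 0.454, 0.320, 1.503 and 0.0692 CPM in RG2833 replicates 1 to 5. Its share at the fixed ratio had a lowest, median and highest value of 58.7%, 109% and 182%. The median depends on the reference library, at 129.6% with the ratio of untreated replicate 2 alone and 86.6% with that of RG2833 replicate 1 alone. The 3 libraries with the most Ttr were also the 3 highest for F5, and RG2833 replicate 5, with 1 count, was the lowest for both. Sostdc1, a secreted antagonist of BMP and Wnt signals, was at 0.404, 144, 5.49, 1.22 and 0.217 CPM in untreated and 166, 0.284, 0.320, 1.69 and 0 CPM in RG2833 replicates. The count of 0 in RG2833 replicate 5 allows a level of up to 0.207 CPM (3 counts; counting error only). Its shares were 78.5%, 88.4% and 226% over the 7 libraries with a count.

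Kl encodes klotho, a co-receptor for a phosphate-regulating fibroblast growth factor. It was at 1.27, 271, 11.0, 2.82 and 1.74 CPM in untreated and 319, 0.965, 0.704, 3.32 and 0.899 CPM in RG2833 replicates, with shares of 13.5%, 68.4% and 101%. Its lowest share came from RG2833 replicate 5, where 13 counts were seen and 1.76 would stand at the fixed ratio. Tmem72, a membrane protein, was at 0.404, 89.0, 3.58, 0.612 and 0.109 CPM in untreated and 102, 0.341, 0.128, 0.626 and 0.346 CPM in RG2833 replicates. Its share ranged from 11.4% to 279%, and it rested on as few as 2 counts per library.

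The bases before the gene start are shown for 4 tested genes, Ttr aside. These genes have the largest factor of highest over median library among tested genes with an entry in the RefSeq promoter table (build GRCr8). Of the 32 genes, 23 matched an entry. The stretch is the 250 bases before the start, 5′ to 3′ on the gene's strand, and capitals mark TAATCC or its reverse complement GGATTA, a core bound by Otx homeodomain factors. The stretches are chr13:79046407-79046656 (plus strand), chr4:151645990-151646239 (minus), chr12:5325753-5326002 (plus) and chr8:53342284-53342533 (plus), in the order below.
F5: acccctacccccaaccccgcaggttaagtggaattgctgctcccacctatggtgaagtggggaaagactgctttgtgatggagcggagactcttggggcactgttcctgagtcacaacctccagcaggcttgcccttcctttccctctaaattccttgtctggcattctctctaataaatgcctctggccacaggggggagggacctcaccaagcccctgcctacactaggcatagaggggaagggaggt
Tmem72: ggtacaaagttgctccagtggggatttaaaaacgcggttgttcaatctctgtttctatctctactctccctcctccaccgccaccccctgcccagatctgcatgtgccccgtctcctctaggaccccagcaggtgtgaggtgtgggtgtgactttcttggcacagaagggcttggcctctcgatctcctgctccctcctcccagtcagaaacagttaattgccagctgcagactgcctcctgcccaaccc
Kl: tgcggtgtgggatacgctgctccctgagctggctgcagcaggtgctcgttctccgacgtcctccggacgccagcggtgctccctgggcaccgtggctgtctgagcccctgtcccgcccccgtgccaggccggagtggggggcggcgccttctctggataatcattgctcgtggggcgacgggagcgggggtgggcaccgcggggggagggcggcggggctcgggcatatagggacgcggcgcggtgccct
Mfrp: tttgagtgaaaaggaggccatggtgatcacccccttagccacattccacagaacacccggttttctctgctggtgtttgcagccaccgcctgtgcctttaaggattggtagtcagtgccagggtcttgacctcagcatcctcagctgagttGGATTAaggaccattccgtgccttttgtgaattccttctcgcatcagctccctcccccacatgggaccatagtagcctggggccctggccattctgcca

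Among these 4 only Mfrp holds the motif, and its match begins 99 bases before the start. Over the 23 matched genes, 2 (8.70%) hold it on either strand, Mfrp and Ace, against 6.34% of the 33469 promoter windows of the same length. A forkhead core, GTAAACA or its reverse complement TGTTTAC, is in the window of 1 of the 23 genes (4.35%), Cab39l, against 3.21% of all windows. The 23 genes have 25 windows, of which 2 hold the Otx core and 1 the forkhead core. The shares of genes are thus not on the same base as the shares of windows. The 2 motifs do not overlap in sequence. A match is a string of letters in the window and was not tested as a binding site.

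**Figure D2:**
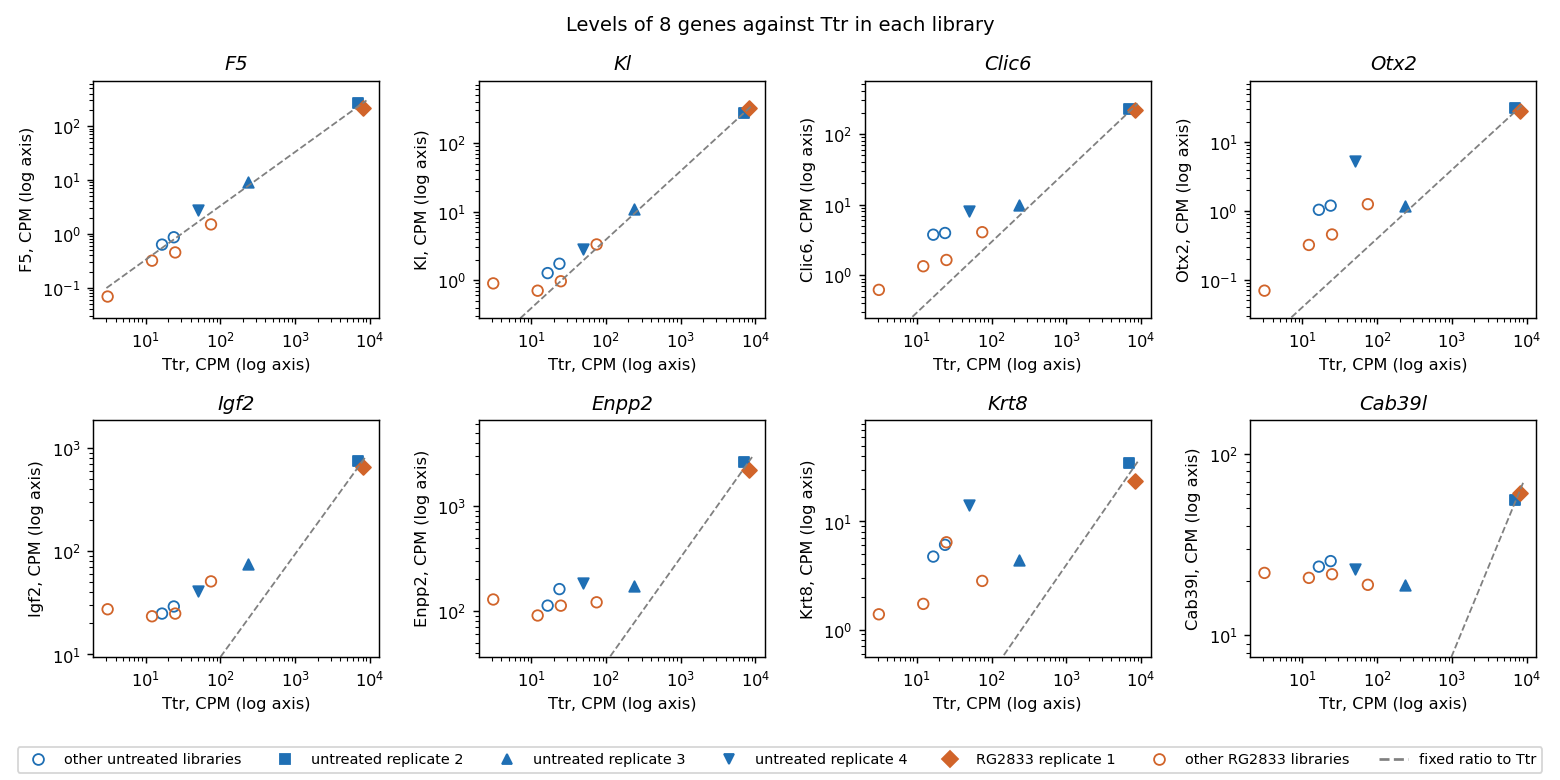
CPM of 8 genes against CPM of Ttr in each of 10 libraries (log axes), with a dashed line at the fixed ratio to Ttr of the 2 Ttr-rich libraries. F5 and Kl lie near the line over most of the range. In the 8 other libraries Otx2 and Krt8 lie above it, with untreated replicate 4 highest. Enpp2, Cab39l and Igf2 also lie above it there, with ranges of 90.8 to 186, 18.9 to 25.6 and 23.5 to 75.1 CPM.

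Of 7 channels, transporters and membrane proteins, 4 had a median share from 10% to 50%: Aqp1, Slc4a5, Clic6 and Trpv4. Aqp1, the apical water channel of the plexus, was at 0.404, 82.8, 3.22, 1.53 and 0.489 CPM in untreated and 78.4, 0.341, 0.768, 1.63 and 0.484 CPM in RG2833 replicates, with a median share of 47.1%. Clic6, a chloride intracellular channel family protein, was at 3.75, 223, 9.85, 8.02 and 3.96 CPM in untreated and 219.8, 1.65, 1.34, 4.07 and 0.622 CPM in RG2833 replicates, with a median share of 22.7%. In both genes untreated replicate 3 was the third library, as it was for Ttr. Slc4a5, a sodium bicarbonate cotransporter, had a median share of 37.3%, and Trpv4, an osmosensitive cation channel, one of 11.4%. Slc13a4, a sodium sulfate cotransporter, was at 4.50, 116, 11.7, 8.02 and 4.13 CPM in untreated and 71.3, 3.98, 5.63, 8.70 and 7.54 CPM in RG2833 replicates. Its lowest value, 3.98 CPM, was still more than the fixed ratio gives, and its median share was 7.73%. Steap1, a member of a metalloreductase family, had lowest, median and highest levels of 0.250, 0.352 and 9.29 CPM and a median share of 8.02%.

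Among receptors, Mfrp, a frizzled-related membrane protein, was at 2.65, 316, 12.1, 7.84 and 3.47 CPM in untreated and 326, 1.249, 1.54, 3.63 and 0.968 CPM in RG2833 replicates, with a median share of 31.7%. Folr1, the folate receptor that carries folate into the cerebrospinal fluid, was at 0.692, 56.2, 2.87, 3.31 and 2.01 CPM in untreated and 70.2, 1.53, 0.256, 1.06 and 0 CPM in RG2833 replicates, with a median share of 20.01% over 7 libraries. Its third-highest library was untreated replicate 4, not replicate 3. Prlr, the prolactin receptor, was at 4.96, 29.9, 6.39, 6.55 and 4.07 CPM in untreated and 51.2, 4.94, 3.52, 4.70 and 4.50 CPM in RG2833 replicates. Outside the 2 Ttr-rich libraries it stayed between 3.52 and 6.55 CPM while Ttr varied from 3.11 to 236 CPM, and its median share was 2.87%.

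The 2 claudins, which seal tight junctions, parted. Cldn2, the pore-forming claudin of leaky epithelia, was at 1.15, 139, 5.31, 2.20 and 1.30 CPM in untreated and 168, 1.02, 0.895, 1.32 and 0.830 CPM in RG2833 replicates, with a median share of 41.5%. Cldn1, a barrier claudin, was at 6.58, 28.2, 1.55, 3.18 and 3.31 CPM in untreated and 26.3, 5.17, 8.51, 2.82 and 2.49 CPM in RG2833 replicates, with a median share of 2.20%. Its lowest value was in untreated replicate 3, the library with the third-highest Ttr. Perp, a protein of desmosomes, was at 25.7, 26.02, 8.72, 15.3 and 18.1 CPM in untreated and 25.6, 18.9, 26.9, 19.5 and 16.5 CPM in RG2833 replicates. Untreated replicate 3 was again the lowest, and the 2 Ttr-rich libraries lay within the range of the others. The low Perp and Cldn1 values stand beside the low Prox1, Neurod6, Grik4 and Fibcd1 of that library, and the part of these in them was not tested. Without untreated replicate 3 and RG2833 replicate 5, Pearson's r with Ttr over 6 libraries was -0.893 for Cldn1 and -0.736 for Perp, against -0.468 and -0.604 over 8 (exact permutation p = 0.238 and 0.111 over 8; Benjamini-Hochberg adjusted 0.939 each).

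Enpp2, Igf2 and Igfbp2, a secreted enzyme, a growth factor and a binding protein, had median shares under 10%. Enpp2 encodes autotaxin, which makes lysophosphatidic acid and is also a known gene of oligodendrocytes. It was at 113, 2617, 173, 186 and 162 CPM in untreated and 2203, 113, 90.8, 121 and 129 CPM in RG2833 replicates. The 8 other libraries lay from 90.8 to 186 CPM, and the fixed ratio to Ttr gave a median share of 5.99%. The 8 oligodendrocyte markers, all detected, summed to 7213 to 14089 CPM in untreated and 8655 to 15904 CPM in RG2833 rats, and their part in the Enpp2 level was not tested.

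Igf2, a growth factor also made by meninges and vessels, was at 24.9, 747, 75.1, 41.7 and 29.2 CPM in untreated and 652, 24.9, 23.5, 51.2 and 27.5 CPM in RG2833 replicates. Its share was 1.07%, 8.56% and 29.6%. Over the 8 libraries Igf2 had a slope on Ttr that did not pass, 0.28 (SE 0.07; edgeR unadjusted p = 0.0026, adjusted p = 0.766), with rho of 0.762 and r of 0.849 (exact permutation p = 0.0368 and 0.00489; Benjamini-Hochberg adjusted 0.929 and 0.939), and r of 0.959 over 6. Igfbp2, a binding protein for it, was at 21.7, 271, 29.4, 18.4 and 18.2 CPM in untreated and 288, 25.5, 24.2, 43.2 and 29.6 CPM in RG2833 replicates, with a median share of 4.26%. The third library was untreated replicate 3 for Igf2 and RG2833 replicate 4 for Igfbp2. Ace, which encodes angiotensin-converting enzyme, was at 12.5, 309, 24.6, 18.1 and 11.6 CPM in untreated and 336, 11.2, 11.7, 15.1 and 15.9 CPM in RG2833 replicates, with a median share of 9.18%.

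Cab39l, a scaffold of the LKB1 kinase complex, was at 23.9, 55.4, 18.9, 23.1 and 25.6 CPM in untreated and 61.1, 21.7, 20.7, 18.97 and 22.1 CPM in RG2833 replicates. The 8 other libraries lay from 18.9 to 25.6 CPM, and the fixed ratio gave 0.805% at the median. Lgals3bp, a secreted galectin-binding glycoprotein, had lowest, median and highest levels of 20.8, 26.7 and 87.0 CPM over the 10 libraries, Sulf1, a heparan sulfate sulfatase, of 3.52, 8.67 and 56.9 CPM, and Wfdc2, a secreted protein with protease-inhibitor domains, of 1.21, 1.71 and 3.84 CPM. Their median shares were 0.998%, 3.86% and 0.718%. Cdkn1c, a cyclin-dependent kinase inhibitor, ran over 4.35, 7.27 and 51.1 CPM with a median share of 3.05%, and Calml4, a calmodulin-like protein, over 1.31, 7.22 and 22.7 CPM with one of 0.954%. Col8a1, a short-chain collagen, ran over 0.256, 0.397 and 36.5 CPM with a median share of 23.2%.

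**Figure D3:**
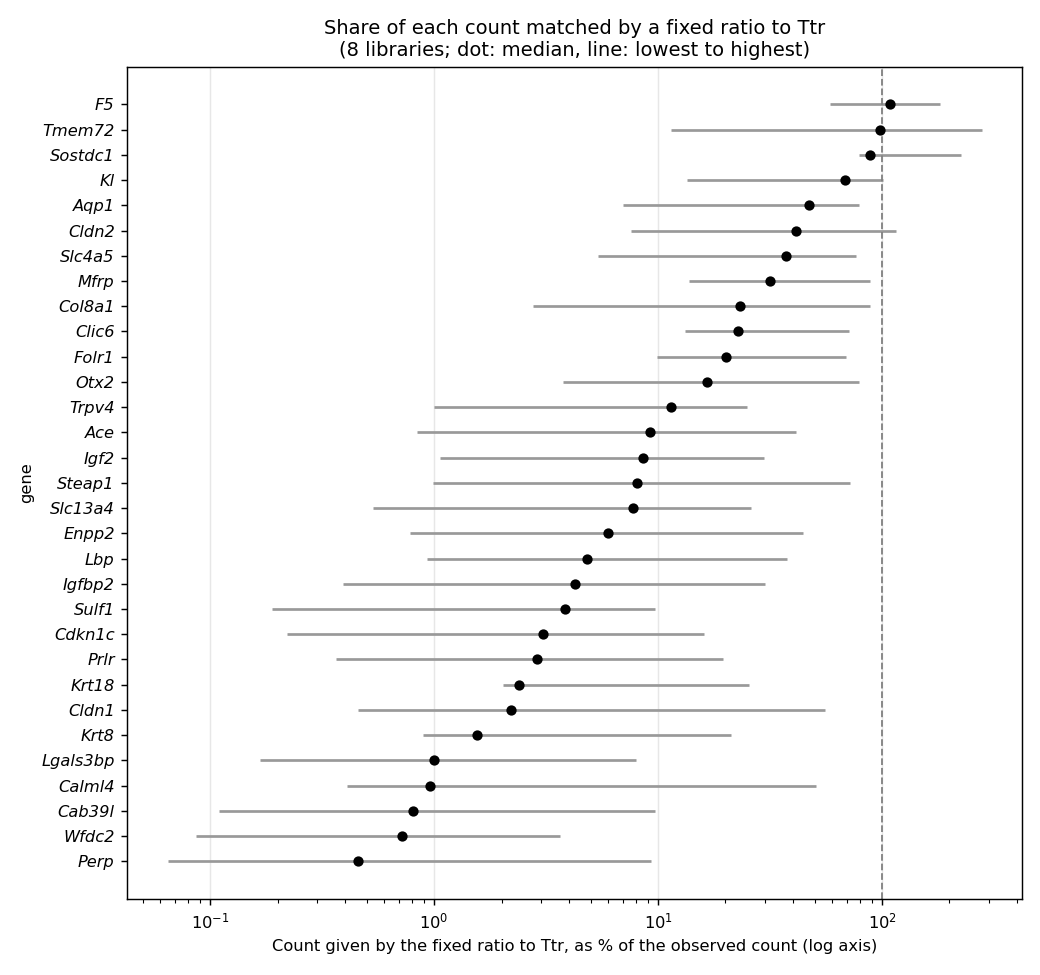
Count given by the fixed ratio to Ttr as a percentage of the observed count (log axis) for 31 genes; dots are medians and lines run from the lowest to the highest of the 8 libraries other than untreated replicate 2 and RG2833 replicate 1, leaving out a library with a count of 0. F5, Tmem72, Sostdc1 and Kl lie nearest 100%, and Perp is lowest at a median of 0.455%.

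Otx2, Lbp, Krt8 and Krt18 were high in a library that was not rich in Ttr. Otx2, a homeodomain transcription factor of the choroid plexus, was at 1.04, 31.0, 1.19, 5.27 and 1.19 CPM in untreated and 28.1, 0.454, 0.320, 1.252 and 0.0692 CPM in RG2833 replicates. In untreated replicate 4 it had 86 counts, where the fixed ratio to Ttr gives 3.24. Krt8, a simple-epithelium keratin, was at 4.73, 34.5, 4.42, 14.2 and 6.08 CPM in untreated and 23.7, 6.42, 1.73, 2.82 and 1.38 CPM in RG2833 replicates. Its partner Krt18 was at 1.56, 18.1, 2.09, 5.45 and 2.39 CPM in untreated and 15.4, 2.39, 0.576, 0.877 and 0.346 CPM in RG2833 replicates. In both keratins untreated replicate 4 was the third library and RG2833 replicate 5 the lowest.

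Lbp, the lipopolysaccharide-binding protein, was at 0.0577, 3.07, 0.179, 1.53 and 0.434 CPM in untreated and 0.968, 0.170, 0.0640, 0.125 and 0.0692 CPM in RG2833 replicates. Here untreated replicate 4 was the second library, above RG2833 replicate 1, with 25 counts. Foxj1, a ciliogenesis factor of ependyma that the choroid plexus also expresses, was at 7.56, 41.6, 7.94, 18.4 and 10.1 CPM in untreated and 34.5, 9.26, 5.76, 7.51 and 4.15 CPM in RG2833 replicates, and Ak7, a cilia-associated kinase, at 2.89, 13.0, 1.13, 12.4 and 5.16 and 8.91, 5.45, 1.02, 0.689 and 0.415 CPM. In untreated replicate 4 both ciliary genes exceeded the other 7 libraries outside the Ttr-rich pair. These ependymal values go beside those of Otx2, Lbp and the keratins; their part in them was not tested.

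The 2 Ttr-rich libraries differed in the ratio of most genes to Ttr. The count per Ttr count in untreated replicate 2, divided by that in RG2833 replicate 1, was between 0.8 and 1.25 for 14 of 31 genes, with a median of 1.248. It was 1.01 (exact 95% interval 0.967 to 1.05) for Kl, 0.978 (exact 95% interval 0.926 to 1.03) for Cldn2 and 1.02 (exact 95% interval 0.969 to 1.08) for Sostdc1. The interval covers the counting error of the gene alone, treats reads as independent molecules and takes the Ttr counts as given, so it says nothing of the spread between rats. It lay above 1 for 20 genes, below 1 for 2 and spanned 1 for 9. Ttr itself was lower in untreated replicate 2, at 0.846 times its CPM in RG2833 replicate 1. A gene at an equal CPM in both libraries therefore has a ratio to Ttr above 1. By CPM, Mfrp stood at 0.971, Igfbp2 at 0.942 and Ace at 0.917 times the level in RG2833 replicate 1, though their intervals lay above 1. F5 stood at 1.27 and Slc13a4 at 1.63 times.

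Among genes richer relative to Ttr in untreated replicate 2, the ratio was 1.497 (exact 95% interval 1.43 to 1.56) for F5, 1.93 (exact 95% interval 1.79 to 2.07) for Slc13a4 and 1.72 (exact 95% interval 1.55 to 1.92) for Cdkn1c. For Igf2 it was 1.35 (exact 95% interval 1.32 to 1.39) and for Krt8 1.72 (exact 95% interval 1.51 to 1.96), and Lbp, with 60 and 15 counts, had 3.75 (exact 95% interval 2.105 to 7.12). The leptomeningeal and stromal sum was also higher in that library, 694 against 197 CPM, and its part in these ratios was not tested. The genes richer relative to Ttr in RG2833 replicate 1, with an interval below 1, were Prlr, at 0.690 (exact 95% interval 0.619 to 0.769), and Col8a1, at 0.671 (exact 95% interval 0.589 to 0.764).

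**Figure D4:**
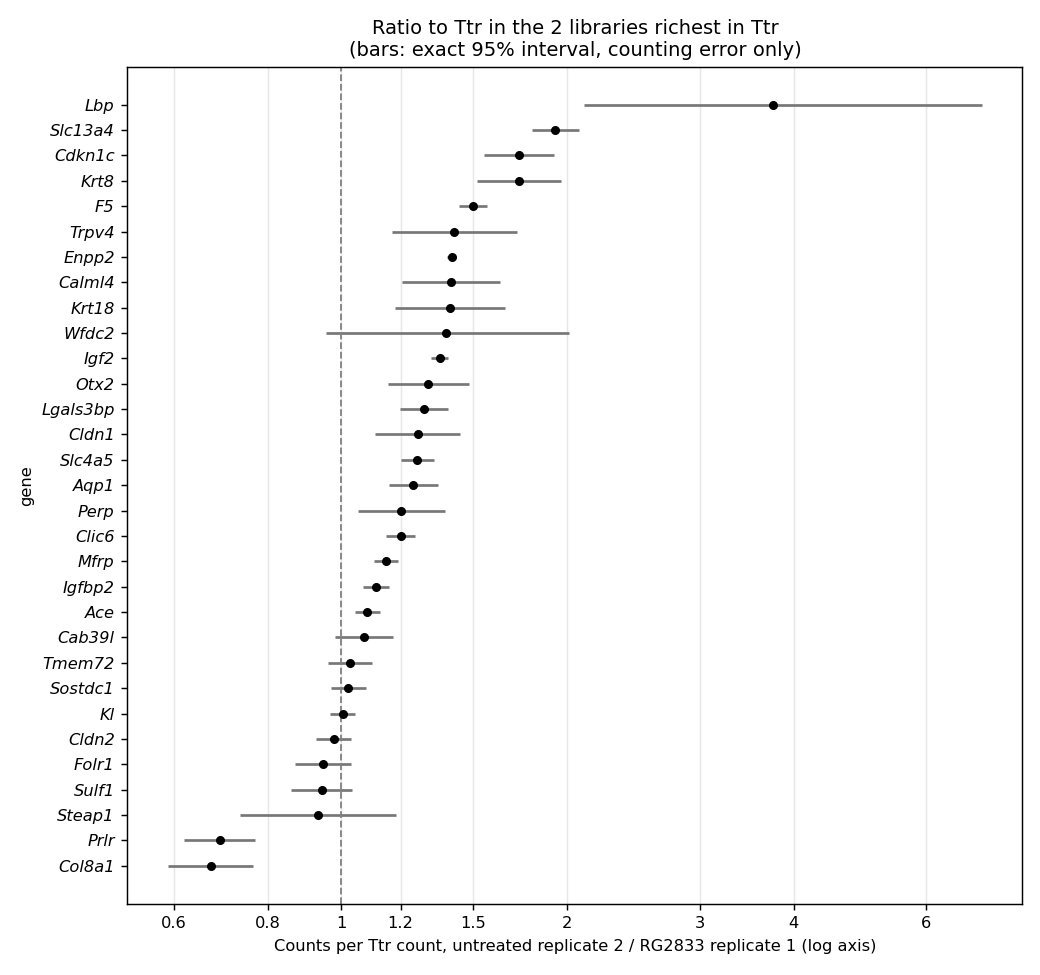
Count per Ttr count in untreated replicate 2 divided by that in RG2833 replicate 1 for 31 genes (log axis), with exact 95% intervals for counting error. Kl, Sostdc1, Tmem72 and Cldn2 lie at 1 within their intervals, Lbp and Slc13a4 lie highest and Prlr and Col8a1 lowest.

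The dependence on Ttr was tested over the 8 other libraries with edgeR's quasi-likelihood test of a slope on log2 Ttr, with a term for the group. A slope of 1 means proportional to Ttr on the log2 scale and a slope of 0 no relation. F5 had a slope of 0.97 (SE 0.08; edgeR adjusted p = 0.0240 over 12160 genes), and it was the single gene that passed; 1 of 28 members compares with 0.00822% of all genes. At an unadjusted p under 0.05 with a positive slope there were 13 of 28 members, against 2.43% of all genes. The median slope was 0.20 over the 28 members and -0.0017 over all genes, and 8 members had a slope above 0.5, against 0.107% of all genes. The 5 members with slopes nearest 0 were Enpp2 (0.04, SE 0.05), Cab39l (-0.07, SE 0.03), Prlr (0.08, SE 0.06), Cdkn1c (0.09, SE 0.08) and Lgals3bp (0.09, SE 0.03), with edgeR adjusted p of at least 0.766. These values do not hold in every fit: without RG2833 replicate 5, where 33.8% of all genes passed, Cdkn1c had a slope of 0.26 and Cab39l one of -0.09 (edgeR adjusted p = 0.0131 and 0.0445). In that fit Enpp2 had 0.12, Prlr 0.13 and Lgals3bp 0.08, and none passed (edgeR adjusted p = 0.0971, 0.139 and 0.0573). Without RG2833 replicate 4 Cdkn1c had 0.016. With all 10 libraries the slopes were 0.44 for Enpp2, 0.34 for Prlr, 0.30 for Cdkn1c, 0.19 for Lgals3bp and 0.14 for Cab39l, with edgeR adjusted p of at most 0.0214. Sostdc1, chosen after its value was seen, had the steepest slope, 1.13 (SE 0.13; edgeR adjusted p = 0.0999).

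With all 10 libraries 25 of 28 members passed with a positive slope, against 1.97% of all genes, and that fit rests on the 2 Ttr-rich libraries. In it F5 had a slope of 1.01 and the median member one of 0.46. Of the 14 tested genes of the further choroid plexus list, 11 passed with a positive slope in the fit of 10 libraries and 0 in that of 8. In the fit of 10 libraries 5 of 12 leptomeningeal and stromal genes and 1 of 7 ependymal genes also passed with a positive slope. Single libraries decided the call over the 8: F5 did not pass without untreated replicate 1, 3 or 5 or RG2833 replicate 2, 3 or 4, where its slope stayed from 0.94 to 1.06. Untreated replicate 3 has the highest Ttr of the 8, and without it the slope of F5 was 1.06 (edgeR adjusted p = 0.612). Without RG2833 replicate 5, 4110 genes passed (33.8% of all genes), 20 of the 28 members among them.

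Correlation with Ttr over the same 8 libraries was computed for each gene. Spearman's rho was 0.905 for Kl, Clic6, Cldn2, Slc4a5 and F5 (exact permutation p = 0.00456 each), and Pearson's r of log2 CPM was 0.956 for F5 and 0.894 for Kl (exact permutation p = 0.000744 and 0.00201). After Benjamini-Hochberg adjustment over 12160 genes 0 genes passed, the smallest exact permutation adjusted p being 0.929 for rho and 0.939 for r. Of the 28 members 8 had a rho of at least 0.8, as did 0.995% of all genes. Without the 2 libraries farthest from the median of Ttr, untreated replicate 3 and RG2833 replicate 5, r over the remaining 6 was 0.839 for F5, 0.922 for Kl and 0.453 for Lgals3bp, which had 0.904 over the 8. Cldn1 had a rho of -0.476 and Perp one of -0.452.

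Outside the members, the 10 genes with the highest rho over the 8 libraries were Dok2, Maged2, Kcnj13, Milr1, Cfdp1, Slfn3, Tcof1, Rgs11, Tnfrsf1b and Heatr2, from 0.976 down to 0.929. Only Kcnj13 among them was on the choroid plexus lists. Its slope was 0.92 over the 8 libraries (edgeR adjusted p = 0.0999) and 0.95 over the 10.

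The comparison of the study asks how RG2833 affects gene expression, and no choroid plexus gene passed it. With edgeR's quasi-likelihood test 0 of 29 members had an adjusted p under 0.05, as had 0% of the 12161 genes, and the smallest adjusted p among members was 0.921. Before adjustment 0 of 29 members had a p under 0.05, against 5.66% of all genes (2.71% lower and 2.94% higher in RG2833). DESeq2 called 7 genes, 0 of them members. It returned no p-value for Ttr, Kl, Enpp2, Igf2 and Igfbp2, so these could not be called by it. The median log2 fold change of RG2833 over untreated was -0.13 for the members and -0.01 for all genes; 17 members were lower and 12 higher, and 53.5% of all genes were lower. The ranges of the groups overlapped in 29 of 29 members; they did not overlap in 1% of all genes tested.

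The error of these fold changes was wide. Ttr had a log2 fold change of 0.19 (SE 2.20), while its mean log2 CPM was 6.99 ± 3.54 in untreated and 5.84 ± 4.33 in RG2833 rats (SD, n = 5 each), so the fitted fold change and the difference of mean logs differed in sign (exact permutation p = 0.635). Kl likewise had a fitted 0.17 (SE 1.92) and a difference of mean logs of -0.90 (exact permutation p = 0.571). Igfbp2 had a fitted 0.19 (SE 1.01) and a difference of mean logs of 0.39 (exact permutation p = 0.492). Enpp2 had -0.29 (SE 1.21) and -0.43 (exact permutation p = 0.468), and Igf2 -0.24 (SE 1.29) and -0.33 (exact permutation p = 0.659). By edgeR each adjusted p was 0.991 or more. A single library set the value: leaving out untreated replicate 2 gave 4.35 for Ttr and leaving out RG2833 replicate 1 gave -5.65, for Kl 3.95 and -5.28, for Enpp2 1.74 and -2.52, for Igf2 1.87 and -2.53, and for Igfbp2 1.91 and -1.23. None of these passed (edgeR adjusted p of at least 0.655).

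Without both Ttr-rich libraries, 0 of 29 members passed (0% of all genes), and the smallest adjusted p among them was 0.947. The median log2 fold change was -0.49 for the members and -0.02 for all genes, and 24 members were lower in RG2833 and 5 higher, where 54.6% of all genes were lower. At an unadjusted p under 0.05 there were 8 members, each lower in RG2833: Clic6, Mfrp, Enpp2, Otx2, Cldn2, F5, Krt18 and Krt8. This is against 4.9% of all genes in either direction and 2.3% in that direction. Ttr itself had -1.503 (SE 1.02) and Igfbp2 0.48 (SE 0.21), and the sign of 11 members differed between the fits with 10 and 8 libraries. The ependymal sum in these 8 libraries was from 29.1 to 67.4 CPM in untreated and from 23.6 to 43.8 CPM in RG2833 rats, highest in untreated replicate 4, and its part was not tested. Untreated replicate 3 had the most Ttr of the 8. Without it as well, a choice made after the values were seen, the median was -0.06 for the members and -0.01 for all genes, with 20 of 29 members lower, against 52.1% of all genes. The value was then -0.056 for Ttr, -1.25 for F5, -0.60 for Cldn2, -1.32 for Mfrp and -1.43 for Clic6, where the 8 libraries gave -1.503, -2.48, -1.29, -1.82 and -1.73. Otx2 had -2.20 against -2.02. No gene passed, the smallest edgeR adjusted p of a member being 0.253. At an unadjusted p under 0.05 there were 9 members, against 14.8% of all genes. Of these, Trpv4 (1.51) and Igfbp2 (0.66) were higher in RG2833 and had the smallest p (edgeR unadjusted p = 0.00967 and 0.00978). The others were lower. With 8 libraries Trpv4 had 0.34.

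**Figure D5:**
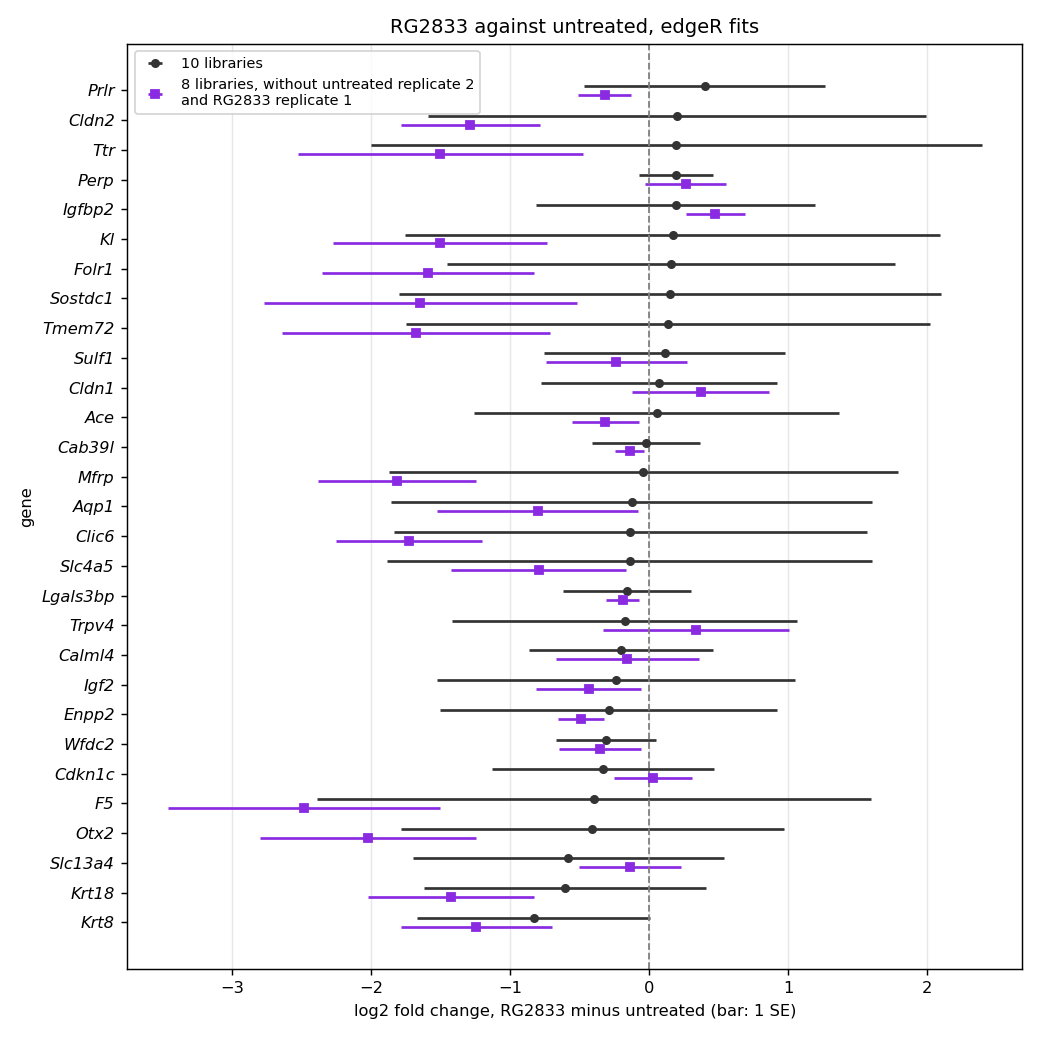
Log2 fold change of RG2833 over untreated for 29 genes (edgeR; bars are 1 SE), with all 10 libraries (circles) and without untreated replicate 2 and RG2833 replicate 1 (squares). With 10 libraries the values lie from -0.83 to 0.40 with SEs up to 2.20; with 8 libraries 24 of 29 lie below 0.

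The further choroid plexus, ependymal and leptomeningeal lists gave no calls for RG2833 either. Of 14, 7 and 12 tested genes, 0, 0 and 0 passed with edgeR, and 7, 6 and 12 were lower in RG2833, against 53.5% of all genes. At an unadjusted p under 0.05 there were 0, 1 and 1, against 5.66% of all genes. The median log2 fold change was 0.03, -1.06 and -1.07. The leptomeningeal value rested on untreated replicate 2: without that library the median was 0.03, with 6 of 12 genes lower, and without both Ttr-rich libraries it was -0.27, with 8 of 12 lower. The ependymal median was -0.70 without untreated replicate 2 and -1.26 without both, with 5 and 6 of 7 genes lower. The further choroid plexus list had a median of 0.76 without untreated replicate 2, with 1 of 14 genes lower, and -0.0031 without both, with 7 lower. All genes lower in RG2833 made up 49.3% and 54.6% in these fits, and 0 genes of the 3 lists passed in either; at an unadjusted p under 0.05 there were 0, 1 and 0 choroid plexus, ependymal and leptomeningeal genes without untreated replicate 2, where 4.18% of all genes were, and 0, 2 and 0 without both, where 4.9% were. Leaving out these libraries was chosen after the values were seen.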

How the data were processed

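The authors deposited RSEM expected counts per gene and TMM-scaled CPM for 10 libraries of hippocampal mRNA. Per the submitters' processing notes the tools were bcl2fastq 2.17, Bowtie2 2.1.0, RSEM 1.2.15 and edgeR, with build rn6; the annotation, filters and strand setting are not given in the sources used here. The deposited CPM signal is scaled by the authors' TMM library sizes, and 100% of its values gave whole reads (tolerance 0.01) equal to the rounded expected counts.

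Expected counts, of which 11.6% were not whole, were rounded. Genes with low counts were removed (edgeR filterByExpr, minimum count 10, minimum total 15), leaving 12161 of 17168. Groups were compared with edgeR 4.0.16 (quasi-likelihood test, Benjamini-Hochberg adjustment, threshold 0.05) in R 4.3.3; DESeq2 1.42.0 and limma 3.58.1 served as alternatives, as did other filters, scalings and omitted libraries. Log2 CPM used a prior count of 2. Printed CPM were recomputed and stood at 0.971 to 1.01 times the deposited ones. Exact permutation tests were two-sided, with a smallest p of 0.00794 for 5 against 5 (252 regroupings). P-values measure the spread between rats. In counts simulated for the comparison of RG2833 with untreated rats, 81% of 200 genes of 12161 changed by 1 on the log2 scale were recovered with 8 other calls; for a slope of 0.5 on Ttr over 8 libraries it was 88% with 11 other calls. These shares hold for genes of ordinary spread: errors of the treatment fold changes of the members reached 2.20 on the log2 scale, and of 8 members with a slope above 0.5 over 8 libraries 1 passed.

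The members and lists were chosen with earlier results of these data known. Genes named with full treatment statistics were Ttr, Kl, Enpp2, Igf2 and Igfbp2. Members at an unadjusted p under 0.05 in the fit of 10 libraries were to be added, and there were 0. For slopes, the rule named members past the threshold and the 5 nearest 0. For likeness, it named the 10 other genes with the highest rho. The series text names a second drug once; groups follow the sample labels.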

Additional observations from a re-analysis of the deposited data

Results flagged for a closer look

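Within each group of 5 rats, 29 tested genes gave 58 sets of log2 CPM, and in 23 sets 1 library stood apart from the other 4 by Dixon's ratio, the gap to the nearest library over the range of the group (critical value 0.71). This is 39.7% of the sets, against 7.89% of the 24322 sets of all tested genes. About 2.9 of 58 would pass by chance if the sets were independent, and these share libraries. All 23 were a high value in 1 of the 2 Ttr-rich libraries, as were 1.36% of the sets of all tested genes. In RG2833 replicate 1 the gap as a share of the range was 0.760 for Kl, 0.740 for Aqp1, 0.920 for Cldn2, 0.875 for Prlr, 0.737 for Slc4a5, 0.890 for Enpp2, 0.766 for Igf2, 0.767 for Igfbp2, 0.817 for Tmem72, 0.731 for Slc13a4, 0.783 for Mfrp, 0.738 for Trpv4, 0.899 for Ace, 0.871 for Cab39l and 0.789 for Lgals3bp. In untreated replicate 2 it was 0.767 for Clic6, 0.764 for Prlr, 0.841 for Enpp2, 0.823 for Igfbp2, 0.771 for Ace, 0.718 for Cab39l, 0.762 for Cdkn1c and 0.786 for Lgals3bp. Prlr, Enpp2, Igfbp2, Ace, Cab39l and Lgals3bp passed in both groups. Ttr passed in neither.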

How the results depend on the processing

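No member passed the comparison of RG2833 with untreated rats under any setting tried, while DESeq2 called 7 genes of the table against 0 with edgeR. DESeq2 returned no p-value for Ttr, Kl, Enpp2, Igf2 and Igfbp2, so that setting gives no test of these genes. The direction of single genes was not stable. Without the 2 Ttr-rich libraries the log2 fold change was -1.50 for Ttr and -1.51 for Kl, and without untreated replicate 3 as well -0.056 and -0.39; with limma on the deposited CPM it was -1.07 and -0.63. With log2 Ttr as a term it was -0.064 for Kl, 0.14 for Enpp2, 0.28 for Igf2 and 0.79 for Igfbp2. The Igfbp2 value (SE 0.34, edgeR unadjusted p = 0.0415, adjusted p = 0.954) kept the sign of the main fit. Leaving out 1 library at a time gave -5.65 to 4.35 for Ttr, -5.28 to 3.95 for Kl, -2.52 to 1.74 for Enpp2, -2.53 to 1.87 for Igf2 and -1.23 to 1.91 for Igfbp2, the extremes coming without RG2833 replicate 1 and without untreated replicate 2.

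Replicate numbers were shared by the groups but did not pair the samples: the correlation of deviations was -0.26, -0.11, -0.49, -0.03 and -0.19 for numbers 1 to 5, and 0 untreated libraries were closest to their own number. With a replicate block the log2 fold change was -2.22 for Ttr and -1.38 for Kl, and 0 members passed.

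The slope on Ttr passed for 1 member of 28 over the 8 libraries, for 5 with DESeq2, 2 with no group term, 25 with all 10 libraries and 9 with the replicate block and all 10. Leaving out 1 library gave 0 to 20 members. Over all genes the counts were 1, 8, 3, 239 and 10, and 0 to 4110 with 1 library left out. The slope of Cab39l was 0.14 with all 10 libraries and 0.14 with the block, and that of Enpp2 ran from -0.0035 to 0.12 with 1 library left out. With counts summed over the 8 libraries, 8 genes had a share of at least 50% against 4 by the median. The cause of these differences was not tested. Depth limits F5, Otx2, Lbp, Tmem72, Folr1 and Sostdc1, which fell to 0 to 2 counts in 1 or more libraries.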
